A study of Rattus norvegicus with 18 samples.

Results

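A set of 10 genes for enzymes and subunits that move nucleosomes along DNA were followed in m6A maps of H9c2 cells: Arid1a, Arid1b, Smarca2, Smarca4 and Smarcc1 of the SWI/SNF complexes, Chd3, Chd7 and Chd8 of the CHD family, Ep400 and Bptf. They were taken by name, as every line of the 9 deposited peak lists whose gene symbol was among them, and all 10 had at least 1 peak, out of 4846 genes with a peak in any list. They carried 335 of the 32961 peaks. Peaks that shared at least 1 base across the lists were joined into sites, which gave 69 sites on the 10 genes and 9022 on all genes.

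Chromatin remodelers use ATP to slide, eject or exchange nucleosomes, and so open or close DNA to transcription factors. SWI/SNF holds a single ATPase, either Smarca2 or Smarca4, on a scaffold that includes Smarcc1, and in its canonical form it carries either Arid1a or Arid1b, which bind DNA. In mice, Smarca4 is active in the embryonic heart muscle, falls in the adult heart and returns under stress. N6-methyladenosine (m6A) is a methyl mark that the METTL3 complex places on mRNA and that reader proteins use to set the stability and translation of a transcript.

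The H9c2 line comes from embryonic rat heart and is labelled as a wild-type cardiomyocyte line. Control cells received no drug, Model cells were given PE (phenylephrine, which activates α1-adrenergic receptors) at 50 µM for 24 h, and SYD cells received the same PE with SYD, the Shen-Yuan-Dan mixture of botanical drugs. The samples are titled SYD_H, and both their treatment notes and the methods of the study give SYD-H a dose of 2 mg/mL, whereas 1 mg/mL stands in the series' own description. Each group had 3 replicates, each with an antibody-captured (IP) and an input library, and the labels do not say whether replicates were separate cultures, so the p-values measure only the spread between these samples. Of 15 cardiac muscle markers, 4 had a peak in any list (Tnnt2 in 9, Nkx2-5 in 8, Gata4 in 1 and Mef2c in 1), and peak lists hold no RNA levels with which to check the other 11.

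A peak is a stretch of mRNA where MACS found more IP than input reads. Its score is 10 times the negative log10 of the p-value, and its fold enrichment is the ratio of IP over input. The lists held 3629 to 5556 peaks in Control, 2883 to 4476 in Model and 2508 to 2786 in SYD, and the lowest score in any list was 20. The depth of the libraries is unknown. At the 917 sites with a peak in all 9 lists, over all genes, the median fold was 12.5 to 16.2 in Control, 12.7 to 17.8 in Model and 26.7 to 40.5 in SYD, whereas the median score was 163.8 to 299.1 in Control, 129.7 to 209.3 in Model and 79.7 to 96.2 in SYD. SYD lists were therefore shorter, with lower scores and higher folds, across all genes. A list also cannot separate a change of the mark from a change in the abundance of the transcript or in the depth of a library.

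Among the 10 genes, sites of the SWI/SNF genes were often shared by the lists, and those of the others seldom. A peak in all 9 libraries stood at 17 of 44 SWI/SNF sites (38.6%) and 1 of 13 CHD sites (7.69%). For Ep400 and for Bptf it was 0 of 6 sites each. The 10 genes were chosen with earlier results of these data known, so these shares describe them and not remodelers in general. On the other remodelers, 12 of 106 sites (11.3%) had a peak in all 9 libraries. Of the 69 sites, 18 (26.1%) had a peak in all 9 libraries, against 917 of 9022 sites (10.2%) over all genes, and 18 (26.1%) had a peak in a single library, against 33.3% over all genes. The 18 shared sites lay on Smarca2 (6), Smarca4 (5), Arid1a (3), Arid1b (2), Smarcc1 (1) and Chd3 (1), and Chd7, Chd8, Ep400 and Bptf had none. The highest score of a shared site ran from 106.5 to 1374 with a median of 287.9, whereas that of a site held by 1 library ran from 20.5 to 74.4 with a median of 27.9. Of the 18 single-library sites, 6 were in Control replicate 1 and 5 in Model replicate 1, which had the longest lists of all. The genes also held many sites each: 8 of the 10 had 6 or more, which 2.91% of all genes with a peak had. Of the 51 sites held by more than 1 library, 47 had the same start and end in every list that held them (77.3% over all genes). The bounds are as deposited and how they were set was not tested, so this does not measure how well peak edges repeat. Sites are numbered below along the chromosome, from the lowest coordinate of build rn6. The lists give no strand, and whether a site lay in a coding exon or a UTR was not analysed here, since no genome or gene model of that build was used.

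**Figure D1:**
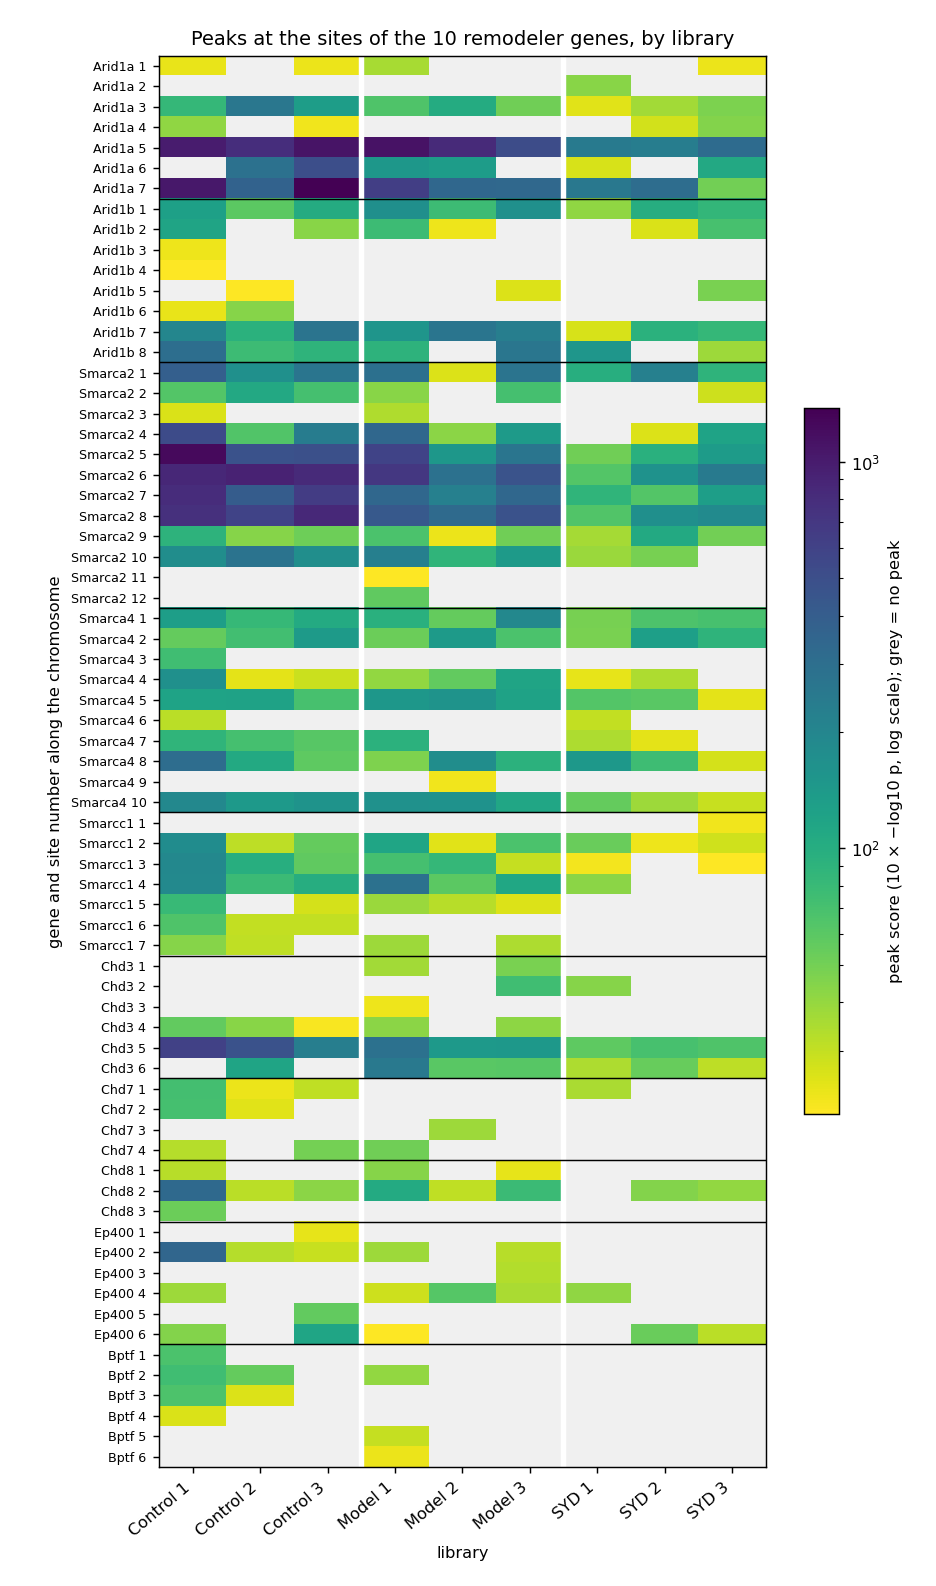
Score of the peak (colour, log scale, 10 times the negative log10 p) at each of the 69 sites (rows, by gene and site number) in each of the 9 libraries (columns); grey means that the list holds no peak. The dark rows on Arid1a, Smarca2 and Chd3 run through all 9 libraries and are paler in SYD, and the rows of Chd7, Ep400 and Bptf are mostly grey.

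Smarca2, the ATPase also known as BRM, had the most sites, with 12 between 244641050 and 244781633 on chromosome 1. Its lists held 10, 9 and 9 peaks in Control, 12, 8 and 9 in Model and 7, 8 and 8 in SYD. SYD lay at or below the lowest library of the other groups. Sites 5 to 8, from chr1:244661885-244662058 to chr1:244677867-244677997, had the highest scores of the gene. At site 6 (chr1:244664219-244664389, 171 bases) the score was 860.1, 926 and 830.1 in Control, 699, 286 and 467 in Model and 63.4, 161 and 244 in SYD, so that the groups fell in that order without overlap. The fold at this site was 20.7, 26.9 and 37.5 in Control, 35.4, 23.6 and 16.4 in Model and 50.7, 40.2 and 59.1 in SYD, where SYD was highest. At site 5 the score was 1239, 479 and 495 in Control, 591, 149 and 269.8 in Model and 51.0, 95.9 and 137 in SYD, and Control and Model overlapped. Site 8, on the far side of this stretch, scored 762, 588 and 845 in Control and 426, 322 and 475 in Model. In SYD it scored 64.7, 171 and 183, again without overlap and in the order of site 6. Site 7 scored 809, 407 and 654 in Control, 337, 222 and 336 in Model and 87.4, 62.8 and 131 in SYD. It kept the same order. How many sites over all genes fell in this order was not counted, so the order is not shown to be particular to Smarca2. SYD scores lay below all others at 31.6% of the shared sites over all genes, a share that leaves the order of Control and Model aside. Sites 4 and 10, outside the stretch, were each called in 8 libraries, missing from SYD replicate 1 and SYD replicate 3, respectively. At site 4 (chr1:244659598-244659771) the score ranged from 25.6 in SYD replicate 2 to 523 in Control replicate 1, and at site 10 (chr1:244727999-244728217) from 38.7 in SYD replicate 1 to 276 in Control replicate 2. Site 1 scored 385, 168 and 270 in Control, 292, 25.5 and 272 in Model and 98.9, 220 and 88.8 in SYD, which overlapped. Site 9 (chr1:244718761-244718988), like site 1, did not have SYD scores below all others. Its score was 91.3, 44.0 and 51.9 in Control, 67.1, 23.2 and 51.0 in Model and 36.0, 107 and 50.1 in SYD, with full overlap of the groups. Its fold was 6.32, 7.83 and 7.71 in Control, 11.2, 5.93 and 9.08 in Model and 28.6, 32.7 and 28.2 in SYD. SYD thus lay above every other library, as at sites 1, 6, 7 and 8 and at 76.3% of the shared sites over all genes. Sites 11 and 12 were each called in Model replicate 1 alone, with scores of 20.8 and 57.1.

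Smarca4, the alternative ATPase known as BRG1, had 10 sites between 22669769 and 22737474 on chromosome 8. Peak numbers were 9, 7 and 7 in Control, 7, 7 and 6 in Model and 8, 7 and 5 in SYD, and the groups overlapped. Sites 1, 2, 5, 8 and 10 had a peak in every library, and none of them reached the scores of Smarca2 sites 5 to 8 in Control. At site 10 (chr8:22737332-22737474) the score was 195, 141 and 158 in Control, 164, 160.2 and 114 in Model and 55.5, 38.3 and 29.4 in SYD, with SYD below all others. At site 2 (chr8:22671855-22672028) it was 55.5, 73.6 and 140.1 in Control, 52.8, 139.9 and 67.3 in Model and 48.1, 128 and 89.9 in SYD, and the groups overlapped. Site 5 (chr8:22681122-22681252) scored 120.0, 123 and 69.8 in Control, 148, 159.9 and 123 in Model and 63.4, 60.1 and 24.2 in SYD, below all others. At site 8 (chr8:22723508-22723761) replicates of a group differed more than the groups did, with 305, 106 and 58.0 in Control, 46.6, 175 and 91.6 in Model and 146, 75.3 and 26.8 in SYD. Site 4 (chr8:22675509-22675676) was called in all libraries except SYD replicate 3, with scores of 23.9 to 166. Smarca4 site 7 (chr8:22716572-22716790) was present in 3 Control libraries, 1 Model library and 2 SYD libraries. The lengths of 4 sites recurred in the same order along both ATPase genes: Smarca2 sites 4, 5, 8 and 10 and Smarca4 sites 2, 3, 5 and 7 measured 174, 174, 131 and 219 bases. The pairing was noticed after the values had been seen, and lengths of 174, 131 and 219 bases occurred at 30, 35 and 24 sites over all genes. The paired sites were not held alike: Smarca2 site 5 was called in all 9 libraries, and Smarca4 site 3 was called in Control replicate 1 only, with a score of 74.4.

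Arid1a and Arid1b, the alternative DNA-binding subunits, kept peaks in all 9 libraries. Arid1a held 5, 4 and 6 peaks in Control, 5, 4 and 3 in Model and 5, 4 and 6 in SYD, and its SYD libraries had the same set of counts as its Control libraries, which of the 10 genes held only for Arid1a and Chd3. Its 7 sites lay between 151904877 and 151977636 on chromosome 5. Site 7 (chr5:151976771-151977636, 866 bases) had the highest score of all 69, 1374 in Control replicate 3, with 1050.1 and 366 in the other Control libraries, 633, 338 and 332 in Model and 255, 306 and 50.2 in SYD. Site 5 (chr5:151946147-151946602) varied less within Control and SYD, though more within Model. It scored 997, 787 and 1098 in Control, 1114, 827 and 513 in Model and 242, 229.6 and 314 in SYD. Control and Model overlapped at both sites and every SYD score was lower. Site 3 (chr5:151912321-151912488) scored 83.6, 261 and 133 in Control, 65.6, 104 and 50.9 in Model and 24.8, 37.0 and 47.4 in SYD, with SYD lowest once more. Site 6 (chr5:151947505-151947717), next to site 5, was called in 6 libraries spread over the groups, 284 and 502 in Control replicates 2 and 3, 148 and 134 in Model replicates 1 and 2 and 26.6 and 109 in SYD replicates 1 and 3. Control replicate 1, the longest list, lacked this site. Site 4 (chr5:151921741-151921981) had a peak in 2 Control and 2 SYD libraries and in no Model library, with scores of 22.4 to 44.5.

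Arid1b held 7, 5 and 4 peaks in Control, 4, 3 and 4 in Model and 3, 3 and 5 in SYD, on 8 sites between 45923222 and 46232334 on chromosome 1. Sites 1 and 7 were called in every library. At site 1 (chr1:45923222-45923422) the fold was 10.8, 11.5 and 16.1 in Control, 27.1, 12.7 and 23.1 in Model and 37.5, 45.9 and 70.0 in SYD, the highest fold of any member site. The score there was 127, 59.0 and 104 in Control, 169, 77.6 and 166 in Model and 41.5, 100.4 and 84.6 in SYD, which overlapped. Site 7 (chr1:46225404-46226187) scored 199.9, 94.1 and 271 in Control, 155, 270.3 and 229 in Model and 26.7, 93.8 and 83.1 in SYD, so that SYD lay below the others, by a narrow gap to Control replicate 2. Site 8 (chr1:46230557-46232334, 1778 bases) was missing from Model replicate 2 and SYD replicate 2 and scored 38.3 to 302 elsewhere. Sites 3 and 4 were called in Control replicate 1 alone, with scores of 23.0 and 20.5.

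Smarcc1, a scaffold subunit also known as BAF155, had fewer peaks in SYD in the lists as deposited. The counts were 6, 5 and 5 in Control, 5, 4 and 5 in Model and 3, 1 and 3 in SYD. SYD did not overlap with either group, but SYD lists were shorter over all genes. How many genes had SYD counts apart in this way was not counted. In lists of equal length the Smarcc1 counts of the groups overlapped, as given below. The F statistic of the counts was compared with its values under all 1680 ways of assigning the 9 libraries to the groups, and this exact permutation test gave p = 0.0214 before adjustment and 1 after Benjamini-Hochberg adjustment over 4846 genes. The 7 sites lay between 118206698 and 118278857 on chromosome 8, and from site 2 upwards fewer SYD libraries held a peak. Site 2 (chr8:118244206-118244327) was called in all 9 libraries, with scores of 179, 31.0 and 55.8 in Control, 117, 25.0 and 67.0 in Model and 54.0, 23.0 and 27.7 in SYD, which overlapped. Site 3 was called in 2 SYD libraries, site 4 in 1, and sites 5, 6 and 7 in none. Site 5 (chr8:118252201-118252238) scored 80.3 and 27.1 in Control replicates 1 and 3 and 38.7, 32.3 and 25.6 in Model. Site 6 (chr8:118276659-118276714) scored 65.2, 30.3 and 30.3 in Control and was in no other library. Site 4 (chr8:118248187-118248246) scored 189.8, 78.1 and 101 in Control, 287, 59.2 and 113 in Model and 42.5 in SYD replicate 1. Site 1 was seen in SYD replicate 3 alone, with a score of 22.4. The sites that SYD lacked had highest scores of 80.3, 65.2 and 43.8, whereas those of sites 2 to 4 were 179, 192 and 287.

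**Figure D2:**
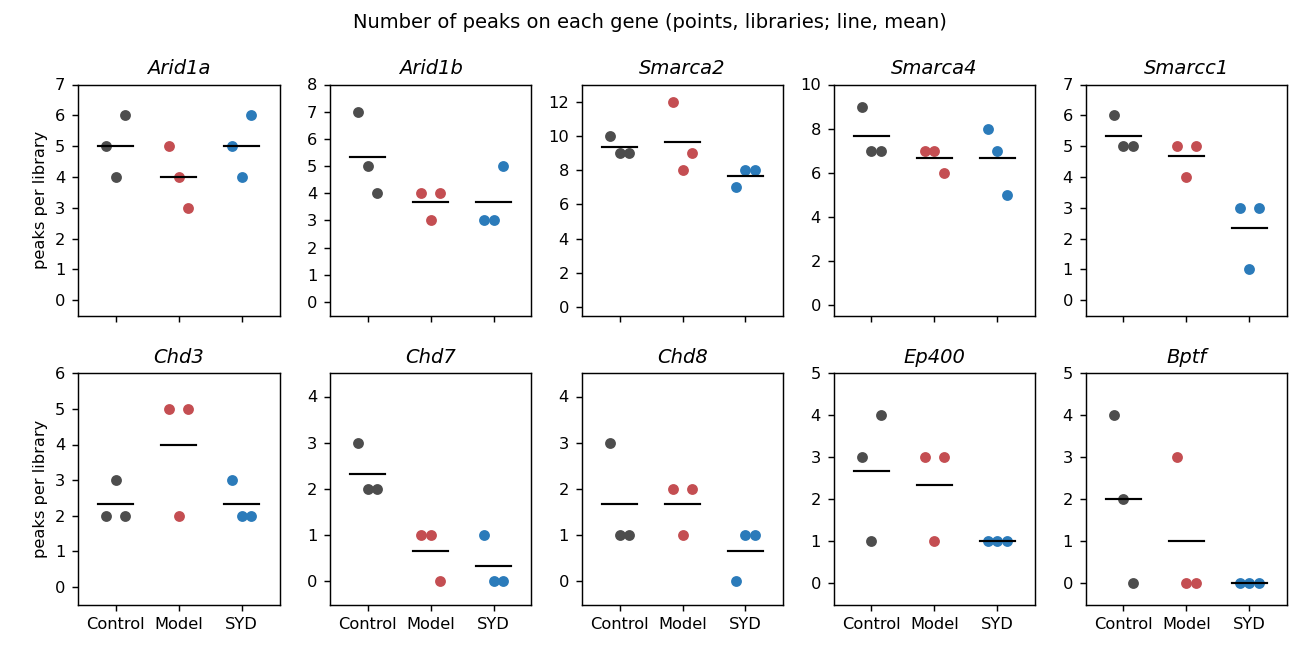
Number of peaks (vertical axis) on each of the 10 genes in each library (points) in its group, with the mean of each group as a line. SYD points lie below all others for Smarcc1 (1 to 3 against 4 to 6), at 0 for Bptf, and within the range of Control for Arid1a (4 to 6).

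Among the CHD genes, Chd3 differed from Chd7 and Chd8. Chd3 is an ATPase of the NuRD complex, which joins remodeling to histone deacetylation. It held 2, 3 and 2 peaks in Control, 5, 2 and 5 in Model and 3, 2 and 2 in SYD, and the exact permutation of F gave p = 0.25. Its site 5 (chr10:55964383-55964553) was called in all 9 libraries, with scores of 614, 478 and 229 in Control, 288, 142 and 147 in Model and 58.7, 69.6 and 65.0 in SYD. Sites 1 and 3 were called in Model libraries only (replicates 1 and 3 at site 1, replicate 1 at site 3), with scores of 23.0 to 47.9. Site 4 (chr10:55962078-55962364) scored 56.4, 43.6 and 21.5 in Control and 42.9 and 42.1 in Model replicates 1 and 3, and was missing from the rest. Site 6 (chr10:55965108-55965216) was called in every Model and SYD library and in Control replicate 2 only, with scores of 118 in Control, 253, 60.2 and 61.2 in Model and 34.5, 54.8 and 31.0 in SYD, a pattern that no other site of the 9022 had.

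Chd7, a remodeler that neural crest and heart development require in mice and people, held 3, 2 and 2 peaks in Control, 1, 1 and 0 in Model and 1, 0 and 0 in SYD. Control lay above all other libraries in the lists as deposited, a pattern whose share over all genes was not counted. In lists of equal length it did not, as given below. The exact permutation of F gave p = 0.0357 before adjustment and 1 after it. No Chd7 site was called in more than 4 libraries. Site 1 (chr5:21830882-21832691, 1810 bases) scored 72.1, 23.2 and 30.9 in Control and 35.2 in SYD replicate 1, with no peak in Model, and site 2 was called in Control replicates 1 and 2 only. Site 4 (chr5:21949175-21950172) scored 32.7 and 49.6 in Control replicates 1 and 3 and 50.7 in Model replicate 1, which were the 3 longest lists. Chd8, which in mammals binds β-catenin and represses its targets, held 3, 1 and 1 peaks in Control, 2, 1 and 2 in Model and 0, 1 and 1 in SYD. Its site 2 (chr15:28646198-28646583) was called in 8 libraries, with scores of 328, 31.5 and 42.7 in Control, 106, 30.7 and 77.9 in Model and 44.5 and 40.4 in SYD replicates 2 and 3.

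Ep400, an ATPase of the TIP60 complex that exchanges a histone variant, held 3, 1 and 4 peaks in Control, 3, 1 and 3 in Model and 1, 1 and 1 in SYD. SYD was lowest but shared the value of 1 with a library of each other group. Site 2 (chr12:51960260-51961629, 1370 bases) scored 345, 32.8 and 29.4 in Control and 37.8 and 32.2 in Model replicates 1 and 3, and had no peak in SYD. The peak of each SYD library lay elsewhere, at site 4 in replicate 1 (41.5) and at site 6 in replicates 2 and 3 (54.0 and 31.9). Bptf, the large subunit of the NURF complex that reads methylated histones, was the gene with the fewest peaks, 4, 2 and 0 in Control, 3, 0 and 0 in Model and 0 in each SYD library. Its 6 sites lay between 95261686 and 95315537 on chromosome 10, and 4 of them were called in 1 library. Site 2 (chr10:95265354-95265579) was the most recurrent, with scores of 74.8 and 55.5 in Control replicates 1 and 2 and 40.6 in Model replicate 1. Every Bptf peak lay in those 3 libraries, and Control replicate 3, with a longer list than Control replicate 2, had none. The exact permutation of F gave p = 0.464 for Bptf and 0.357 for Ep400. For Arid1a, Arid1b, Smarca2, Smarca4 and Chd8 it gave 0.561, 0.261, 0.182, 0.679 and 0.5. Over all 4846 genes, 103 (2.13%) had p under 0.05 before adjustment and 0 after it, and of the 10 remodelers 2 did before adjustment, Smarcc1 and Chd7. The smallest p that this design allows is 0.00357, so adjustment over 4846 genes could call a gene only if many genes reached that value.

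The number of peaks on the 10 genes moved with the length of the lists. It was 43.7 ± 7.23 per library in Control, 38.3 ± 8.08 in Model and 29.7 ± 2.31 in SYD (mean ± SD, n = 3). As a share of all peaks in the list, the genes held 0.984% ± 0.0783 in Control, 1.00% ± 0.104 in Model and 1.12% ± 0.116 in SYD. When each list was reduced to its 2508 highest scores, the length of the shortest list, the 10 genes held 30, 29 and 29 peaks in Control, 29, 28 and 29 in Model and 31, 27 and 29 in SYD. In lists of that length Smarcc1 held 4, 2 and 3 peaks in Control, 3, 4 and 2 in Model and 3, 1 and 1 in SYD, and its exact permutation p was 0.293. Chd7 then held 0 or 1 peak in every library (exact permutation p = 1). Bptf held 1 peak in each of Control replicates 1 and 2 and none elsewhere. The lowest score kept ranged from 20.04 in SYD replicate 1 to 72.2 in Control replicate 1.

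**Figure D3:**
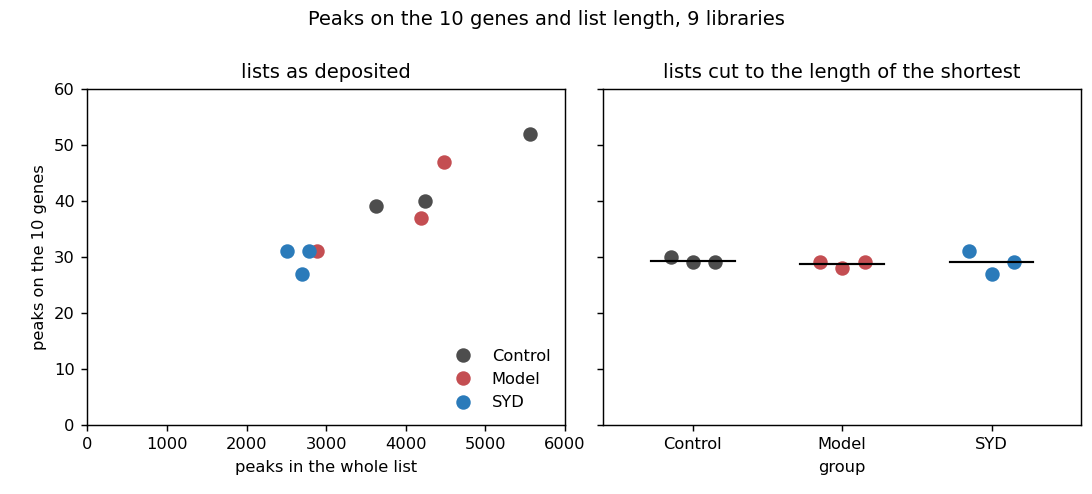
Left, peaks on the 10 genes (vertical axis) against peaks in the whole list (horizontal axis) for the 9 libraries as deposited; right, peaks on the 10 genes by group when each list was cut to the 2508 highest scores (points, libraries; line, mean). On the left the values run from 27 to 52 and the longest lists hold the most; on the right all lie between 27 and 31.

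The comparison of Control with Model asks where PE went with a gain or a loss of a site. A site was taken to separate a pair of groups when all 3 libraries of the first and none of the second held it. For a single site Fisher's exact test, two-sided, cannot give less than p = 0.10 with 3 against 3. Over all genes 69 of 8585 sites (0.804%) were in every Control and no Model library, and 15 (0.175%) the reverse. Of 67 remodeler sites, 2 were in Control alone of that pair (Chd7 site 1 and Smarcc1 site 6) and 0 in Model. Between Model and SYD, which differ by the addition of SYD, 149 of 7115 sites (2.09%) were in every Model and no SYD library and 9 (0.126%) the reverse, and of 57 remodeler sites 1 (Smarcc1 site 5) and 0 did so. Between Control and SYD, which shares its libraries with the other comparisons, the counts were 277 of 7917 (3.5%) and 9 (0.114%) over all genes, and 3 (Chd3 site 4, Ep400 site 2 and Smarcc1 site 6) and 0 of 60 remodeler sites. The remodeler counts of 2, 1 and 3 are too few to set apart from these shares. At lists of equal length none of these 5 sites separated any pair. With scores of at least 50 alone, 6 other remodeler sites were in every Control and no SYD library, out of 221 such sites over all genes. No share of all sites was computed at that score, so these sites cannot be set apart from all sites. SYD scores were lower over all genes, and a fixed cutoff therefore drops more of the SYD peaks everywhere. The 6 were Arid1a site 3, Smarca2 sites 2 and 10, Smarca4 site 7 and Smarcc1 sites 3 and 4. Each of these 6 had a peak with a lower score in at least 1 SYD list.

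The presence patterns of the separating sites were shared with many others. Smarcc1 site 6, called in the 3 Control libraries and nowhere else, had the pattern of 42 sites over all genes. Chd3 site 4 and Ep400 site 2 had the same pattern as each other, absent from Model replicate 2 and from all of SYD, as did 62 sites in all. The pattern of Smarcc1 site 5 occurred at 31 sites and that of Chd7 site 1 at 6. Of the 31 remodeler sites held by all 3 Control libraries, 24 (77.4%) were held by all 3 Model libraries and 18 (58.1%) by all 3 SYD libraries. The same shares over all genes were 64.8% and 48.9%.

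Fold enrichment was compared at the 18 remodeler sites that every library held. On the deposited scale all 3 SYD libraries lay above all 6 others at 14 of the 18 sites (76.3% over all 917 sites), and on the score scale all 3 SYD libraries lay below all others at 11 (31.6% over all genes). The exceptions on the fold scale were Arid1a site 7, Smarca2 site 5, Smarca4 site 10 and Chd3 site 5. The median fold over all 917 sites was 2.52 times higher in SYD than in Control and 2.21 times higher than in Model, and the median of Model was 1.14 times that of Control. Each library was therefore centred on its median log2 fold, and a difference is relative to that of all shared sites. With limma and adjustment over 917 sites, 0 sites passed an adjusted p of 0.05 in any comparison, among the remodelers or over all genes (0% each).

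After centring, the 18 sites had a median difference of 0.01 between Model and Control (log2, Model minus Control), of -0.11 between SYD and Model and of -0.14 between SYD and Control, against -0.0014, 0.011 and 0.019 over all 917 sites. An unadjusted limma p under 0.05 was reached by 1 of the 18 sites in Model minus Control (2.4% over all sites), by 2 in SYD minus Model (7.31%) and by 4 in SYD minus Control (8.51%). These were on Smarca2, Smarca4 and Arid1b. Smarca2 site 5 was lower in Model than in Control by a log2 difference of -0.62 ± 0.26 (SE, limma adjusted p = 0.997) and Smarca2 site 7 (chr1:244673812-244673865) was lower in SYD than in Control by -0.72 ± 0.25 (adjusted p = 0.508). Smarca2 site 9 lay higher in SYD than in Control by 0.70 ± 0.26 (limma adjusted p = 0.514) and higher than in Model by 0.67 ± 0.26 (adjusted p = 0.648). Smarca4 site 10 lay lower in SYD than in Model by -0.58 ± 0.24 (limma adjusted p = 0.648), and Arid1b site 1 higher in SYD than in Control by 0.64 ± 0.27 (adjusted p = 0.564). Smarca2 site 5 had -0.61 ± 0.26 in SYD minus Control (limma adjusted p = 0.564). Without centring, 15 of the 18 sites passed in SYD minus Model and 15 in SYD minus Control, with 12 in both, as did 826, 880 and 814 of the 917 sites over all genes.

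**Figure D4:**
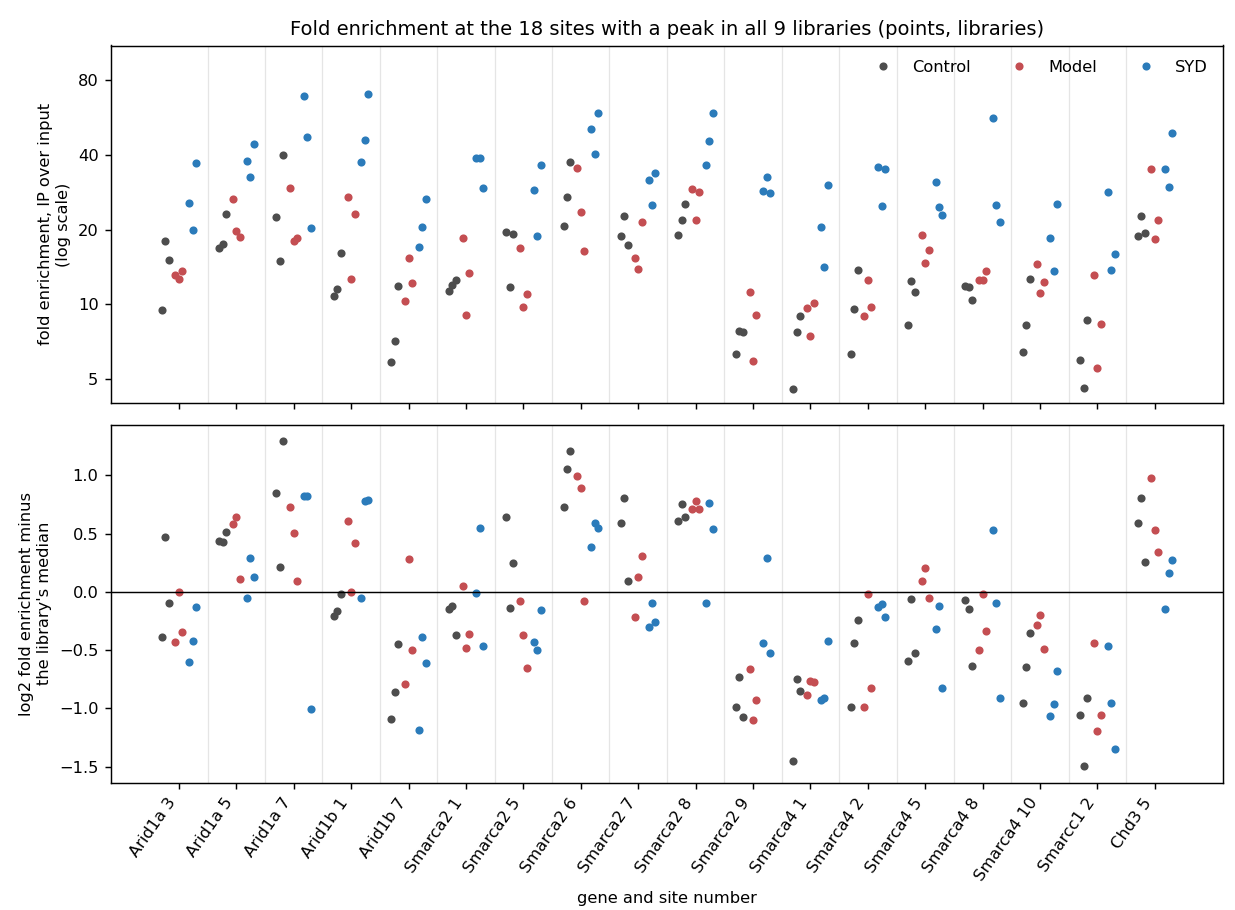
Fold enrichment of IP over input at the 18 remodeler sites with a peak in all 9 libraries, as deposited (top, log scale) and as log2 minus the median of the library over 917 sites (bottom), with 1 point per library, coloured by group. At the top SYD lies highest at 14 sites; at the bottom the groups overlap at most sites, Smarca2 site 7 in SYD (all 3 below 0) overlaps with a Model library, and none of the differences passed limma's adjusted test.

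A ratio between sites of the same gene in the same library is free of any factor common to all folds of that library. It was examined after the values had been seen, so no test is given. The lowest fold in a list was 2.72 to 4.21 in Control and Model and 7.91 to 10.5 in SYD. Its effect on a ratio was not tested. The fold of Smarca2 site 9 over that of site 7 was 0.335, 0.345 and 0.446 in Control, 0.731, 0.428 and 0.424 in Model and 0.905, 1.31 and 0.831 in SYD, and SYD lay above the other 6. For site 9 over site 8 the values were 0.333, 0.358 and 0.305 in Control, 0.384, 0.272 and 0.322 in Model and 0.786, 0.723 and 0.479 in SYD. Ratios of the scores also placed all SYD libraries above the others for these 2 pairs, which share site 9. For site 9 over sites 5 and 6 the score ratios placed SYD above, whereas the fold ratios overlapped. For site 9 over site 1 the fold ratios placed SYD above, whereas the score ratios overlapped. For Smarca4 site 10 over site 2 the fold ratios were 1.03, 0.867 and 0.923 in Control, 1.63, 0.885 and 1.27 in Model and 0.522, 0.551 and 0.726 in SYD, and SYD lay below, whereas its score ratios overlapped between SYD and the others. In all, 5 of 29 pairs within the remodeler genes had fold ratios with SYD apart from all others, against 16 of 252 pairs (6.35%) over all genes. These were 3 of 15 pairs in Smarca2 and 2 of 10 in Smarca4, with 0 of 3 in Arid1a and 0 of 1 in Arid1b. Fold and score ratios both set SYD apart at 2 of the 29 pairs and at 5 of the 252. Pairs of a gene share sites and are not independent.

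**Figure D5:**
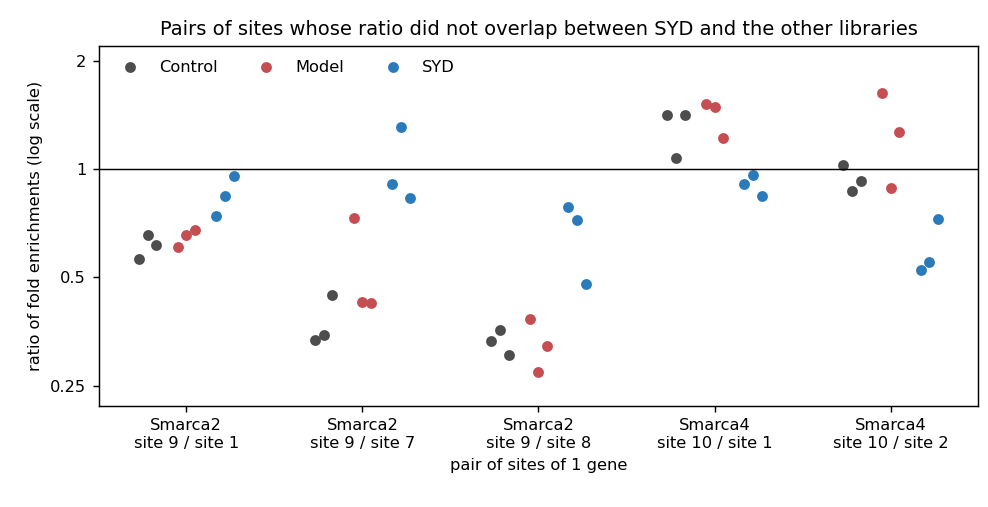
Ratio of the fold enrichments of a pair of sites of the same gene in each library (points, log scale), for the 5 pairs whose SYD libraries did not overlap with the other 6. The Smarca2 ratios, with site 9 on top, are higher in SYD, and the Smarca4 ratios, with site 10 on top, are lower in SYD.

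The wider list of remodelers held 97 further symbols, of which 57 had a peak, on 106 sites. Of those 106 sites, 12 (11.3%) were called in all 9 libraries, close to the 10.2% of all genes. The number of these genes with a peak was 36.0 ± 11.4 in Control, 29.3 ± 8.08 in Model and 19.3 ± 1.53 in SYD (mean ± SD, n = 3 each), in the order of the list lengths. With the 10 genes included, the SWI/SNF family had a peak on 20 of 30 symbols and 20 of its 74 sites in all libraries (27%), of which 17 were among the 44 sites of its 5 genes described above and 3 (10%) among the other 30. The CHD and NuRD family had 8 such sites of 44 (18.2%), 7 of them among the 31 sites outside the 10 genes (22.6%), the ISWI family 1 of 20, the INO80, SRCAP and TIP60 families 1 of 25, and other SNF2-type ATPases 0 of 12. Outside the 10 genes, 1 of 103 sites (0.971%) was in every Control and no Model library, 0 of 80 in every Model and no SYD library and 3 of 96 (3.12%) in every Control and no SYD library, near the shares of all genes (0.804%, 2.09% and 3.5%). These sites were on 4 remodelers. Ruvbl2, an ATPase shared by the INO80 and TIP60 complexes, had a site on chromosome 1 (chr1:101421895-101422036) in every Control and no Model library, with Control scores of 33.8 to 47.4. SYD replicates 1 and 2 also held it, with scores of 21.1 and 24.55. Epc2 of the TIP60 complex, Chd6 of the CHD family and Arid2, the DNA-binding subunit of the PBAF form of SWI/SNF, each had a site in every Control and no SYD library, with Control scores of 28.1 to 66.2, 30.8 to 237.9 and 21.6 to 59.5. At each of these 3 sites, 2 of the 3 Model libraries held a peak.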

How the data were processed

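Per the study's methods, reads were trimmed (cutadapt 1.9.3) and mapped to rn6 (HISAT2 2.0.4), and the authors ran MACS on each replicate, IP against input, keeping the peaks on mRNA. The 9 deposited lists, from 18 sequenced samples, give the authors' score (10 times the negative log10 p), the deposited fold enrichment (a ratio) and other columns, of which starts (counted from 0, here raised by 1), ends and lengths were used. The deposited FDR, 100 percent in every line, was not used. Depth is unknown, so no counting error is given. Inputs and differential calls from reads were not analysed here.

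Peaks overlapping by at least 1 base were joined into sites, and the highest-scoring peak of a library stood for it. Fold was tested with limma 3.58.1 (R 4.3.3) in 1 fit of 9 libraries, and peak number by exact permutation of F, both with Benjamini-Hochberg adjustment and tested on simulated data. Scripts ran in Python 3.11.15. All 10 genes are named with their sites, and other remodelers only if a site separated a pair of groups or passed limma. The 10 genes and the wider list of 107 symbols were chosen with earlier results of these data known. As alternatives, only scores of 50 or more were kept, lists were cut to equal length, peaks had to overlap by 50% of the shorter, 2 libraries against none were enough, fold was left uncentred, quantile-normalized or replaced by the score, sites of a pair were fitted alone, the replicate number entered as a block, and each library was left out.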

Additional observations from a re-analysis of the deposited data

How the results depend on the processing

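Limits: lists without depth cannot tell a lost site from a shallow library, and groups of 3 cannot pass a two-sided exact test of a single site.

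The overlap of 50% changed no count. In lists of equal length, sites that separated Control from Model fell to 25 (Control) with 17 (Model), Model from SYD to 35 and 30, and Control from SYD to 43 and 28, with 0 remodeler sites throughout. A score of at least 50 gave 38 and 6, 114 and 2, and 221 and 2 sites, with 0, 3 and 6 remodeler sites held by the first group. At least 2 libraries against none gave 439 and 193, 746 and 99, and 1070 and 73 sites, with 6 and 1, 6 and 1, and 10 and 0 remodeler sites. Leaving out each library gave 102 to 219 and 28 to 121 sites for Control and Model, 206 to 529 and 22 to 51 for Model and SYD, and 365 to 673 and 17 to 35 for Control and SYD. The remodeler sites then numbered 2 to 5 and 0 to 1, 1 to 6 and 0 to 1, and 3 to 8 and 0 to 1. A rule over 2 libraries passes more sites by construction. The largest counts came without Control replicate 2 (673), without Model replicate 2 (529), and, for remodelers, without Control replicate 3 (5 and 8) and without Model replicate 2 (6).

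Without centring, 826 sites differed between SYD and Model and 880 between SYD and Control, 15 of them on remodelers in each, and 0 between Model and Control. Directions then turned to 0.56 for Smarca4 site 10 (SYD minus Model) and to 0.72 and 0.62 for Smarca2 sites 5 and 7 (SYD minus Control), as the shift of all sites enters the difference. Every other limma alternative gave 0 sites.

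A score of at least 50 lowered peaks on the 10 genes to 31.0, 26.0 and 15.3 per library in Control, Model and SYD, genes with a peak to 8, 7.33 and 5.67, and raised the share of peaks to 1.27%, 1.34% and 1.36%. Equal lengths gave 29.3, 28.7 and 29.0 peaks, 8 genes in each group, and 1.17%, 1.14% and 1.16%. Leaving out a library gave 39.5 to 46.0, 34.0 to 42.0 and 29.0 to 31.0 peaks.

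Of 9 same-numbered pairs of libraries, 1 had deviations from the group means that correlated above 0.1 (range -0.05 to 0.26). It was Control and Model replicate 1. Libraries with different numbers were not correlated, so whether the replicate numbers pair the libraries is not settled. With the replicate number as a block, limma gave 0 sites in every comparison. Permutation within the replicate number gave 0 genes after adjustment, 6 instead of 103 before it, and p = 0.0556 for Smarcc1 and 0.111 for Chd7. It has fewer assignments than the 1680 of the main test, so its smallest possible p is larger. The 0 genes after adjustment and the fall to 6 therefore say nothing about pairing. Leaving out each library gave an exact p of 0.0214 to 0.0571 for Smarcc1, highest without SYD replicate 2, and 0.0143 to 0.1 for Chd7, highest without Control replicate 1. A score of at least 50 gave exact p values of 0.0357 for Smarcc1 and 1 for Chd7.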

Other observations

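Across the 917 sites held by every library, the centred log2 difference of SYD from Control had a Pearson correlation of -0.15 with the centred Control level, over sites that share libraries, and 0.06 with the mean level over all libraries. The first quantity contains the Control level with the opposite sign, so it is given as a description only.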
